A study of Mus musculus with 12 samples.

Results

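Apolipoprotein genes and the lipid-loading gene Mttp, 10 of the 16915 genes tested, were followed in the livers of mice that lack Phgdh in hepatocytes. They were the apolipoprotein genes Apoa1 (RefSeq NM_009692), Apoa2 (NM_013474), Apoa4 (NM_007468), Apoa5 (NM_080434), Apob (NM_009693), Apoc1 (NM_007469), Apoc3 (NM_023114), Apoe (NM_009696) and Apom (NM_018816), together with Mttp (NM_001163457), which encodes the microsomal triglyceride transfer protein. They were chosen by name, with no measured value in the rule, and every probe of the array whose RefSeq accession belongs to one of them was used, which gave 12 probes. All 12 probes, and so all 10 genes, were well above background on all 12 arrays, and none of their spots was saturated.

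LKO mice carried 2 floxed alleles of Phgdh, the first enzyme of serine synthesis from glucose, and 1 allele of Cre recombinase driven by albumin (Alb+/Cre; Phgdh flox/flox). Floxed mice were their littermates with the same floxed alleles and no Cre. All were males of 30 weeks on a C57BL/6 background, fed chow with 20% casein, with 6 mice per genotype and 1 single-color Agilent array per mouse. Albumin-driven Cre acts in hepatocytes, so the other cells of the liver kept the floxed gene, and no Cre-only group was among the 12 arrays.

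Lipoproteins carry triglyceride and cholesterol through blood in a shell of phospholipid and apolipoproteins. Hepatocytes build very low density lipoprotein (VLDL) around 1 molecule of apolipoprotein B, which microsomal triglyceride transfer protein loads with lipid in the endoplasmic reticulum, and they also secrete apolipoproteins A-I and A-II, on which high density lipoprotein (HDL) forms. Smaller apolipoproteins then move between particles and set how fast plasma lipases and liver receptors act on them. In the RefSeq gene table of assembly GRCm38.p6, Apoa1, Apoc3, Apoa4 and Apoa5 follow each other on chromosome 9, and Apoc4, Apoc1 and Apoe follow each other on chromosome 7. The remaining genes lie alone, with Apoa2 on chromosome 1, Mttp on chromosome 3, Apob on chromosome 12 and Apom on chromosome 17.

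The start regions of Apoa1, Apom, Apob and Apoa4 are shown here because these 4 genes had the largest differences between genotypes, Apoa4 upward and the others downward, of which that of Apoa4 was called. Each is 300 bases of the RefSeq promoter table of GRCm38.p6, 250 before the transcription start and 50 after it, written 5′ to 3′ on the strand of the gene. Capitals mark matches to TGTTTNC for forkhead (FOXA) factors, to CAAAGTNCA for HNF4 and to TATAAA for the TATA box, searched on both strands and chosen with the sequences in view.
Apoa1, chr9:46228380-46228679, plus strand: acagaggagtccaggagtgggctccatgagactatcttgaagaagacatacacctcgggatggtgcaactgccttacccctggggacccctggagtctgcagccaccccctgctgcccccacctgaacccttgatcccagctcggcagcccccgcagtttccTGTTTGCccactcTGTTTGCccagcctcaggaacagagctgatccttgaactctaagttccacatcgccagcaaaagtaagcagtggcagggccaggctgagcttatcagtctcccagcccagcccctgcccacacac
Apom, chr17:35131752-35132051, minus strand: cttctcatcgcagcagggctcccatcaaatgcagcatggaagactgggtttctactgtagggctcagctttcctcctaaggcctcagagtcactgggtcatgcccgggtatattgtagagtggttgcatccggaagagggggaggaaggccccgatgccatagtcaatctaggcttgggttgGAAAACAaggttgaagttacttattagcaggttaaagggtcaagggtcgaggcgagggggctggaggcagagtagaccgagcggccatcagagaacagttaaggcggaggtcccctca
Apob, chr12:7977427-7977726, plus strand: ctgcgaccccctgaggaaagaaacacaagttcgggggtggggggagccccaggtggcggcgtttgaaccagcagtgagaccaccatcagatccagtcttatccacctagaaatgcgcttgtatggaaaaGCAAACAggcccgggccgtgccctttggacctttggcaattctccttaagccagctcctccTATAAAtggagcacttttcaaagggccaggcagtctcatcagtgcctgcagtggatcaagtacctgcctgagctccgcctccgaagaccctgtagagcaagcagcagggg
Apoa4, chr9:46240594-46240893, plus strand: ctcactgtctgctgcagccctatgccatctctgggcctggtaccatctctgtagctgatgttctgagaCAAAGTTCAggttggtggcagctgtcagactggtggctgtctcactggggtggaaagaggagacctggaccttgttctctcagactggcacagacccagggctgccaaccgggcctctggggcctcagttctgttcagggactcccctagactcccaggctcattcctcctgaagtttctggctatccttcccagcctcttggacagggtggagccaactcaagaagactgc

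The Apoa1 window held 2 forkhead matches, TGTTTGC, with first bases 88 and 75 before the start. Apob held 1 on the other strand, 121 before the start, and a TATA match 60 before it. The Apom window held GAAAACA, a forkhead match on the other strand 68 before the start. Apoa4 alone of the 8 genes with a window in the table held an HNF4 match, CAAAGTTCA, 182 before the start, and it held no forkhead match. Apoc1 and Apoc3 had no window in the table. Over all 32851 windows of this length, 20.5% held a forkhead match, 1.41% an HNF4 match and 13.6% a TATA match, and of the 12 windows that the table holds for 8 of the genes, 7, 1 and 5 did. Windows of Apoa2, Apoa5 and Apoe held the other forkhead matches, so 6 of the 8 genes had one in at least 1 window, of which Apoe had 3 and Apoa2 and Apoa5 had 2 each. The 2 Apoa5 windows overlap, so the same forkhead match and the same TATA match were counted in both. With motifs chosen in view of the sequences, these counts are no test against all windows. All are matches of letters and say nothing of binding.

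The deleted gene was read first. The Phgdh probe gave log2 intensities between 4.81 and 5.50 in the Floxed group (median 5.17), against 4.23 to 5.30 in the LKO group (median 4.57). LKO mice 3 to 6 lay below every Floxed mouse, while LKO 1 at 5.07 and LKO 2 at 5.30 lay inside the Floxed range. The log2 fold change was -0.48 (standard error 0.18, limma p = 0.0179, adjusted p = 0.451, exact permutation p = 0.0346). The probe was dim, at percentile 8.36 of the tested genes. Whether this probe reads a part of the transcript that Cre removes was not examined. The slides followed the genotypes closely. Floxed 1 to 4 were on slide 1 and LKO 3 to 6 on slide 3, and slide 2 carried both genotypes, as Floxed 5, Floxed 6, LKO 1 and LKO 2, so the 2 LKO mice with Phgdh in the Floxed range were also those that shared a slide with Floxed mice. Slide and genotype cannot be told apart outside slide 2, and within slide 2 the Phgdh difference was -0.055. The differences of the 10 genes are therefore given also within slide 2, which compares 2 LKO with 2 Floxed mice. With LKO 1 and LKO 2 left out, Phgdh fell by 0.72 on the log2 scale. These mice had the highest Phgdh values of the LKO group, so a larger fall without them was fixed by the choice. Leaving them out also leaves no LKO array on slide 2, here and for the genes below. The liver itself was plain in the arrays, as 10 of 11 hepatocyte marker genes were tested and well above background in all mice.

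Of the 10 genes, 1 was called, about the share called over all genes. Apoa4 was higher in LKO liver, by 0.69 on the log2 scale or 1.61-fold, at an unadjusted limma p of 0.0381 (adjusted p = 0.564, exact permutation p = 0.0714), and the other 9 genes did not pass this threshold in either direction. Over all 16915 genes, 1413 passed it, a share of 8.35%, with 4.92% higher and 3.43% lower in LKO mice. No gene passed an adjusted p of 0.05 in limma, and the smallest adjusted p was 0.132. The median log2 fold change of the 10 genes was 0.0016, beside -0.0035 over all tested genes, with 5 genes above 0, 4 below and Apoa2 at 0. The middle values of this median were those of Apoa2, set to 0 by the normalization, and Apoe, which the normalization left little freedom. Apoa2 could therefore not be called, and the median is no reading of these genes as a group. None of the 10 had groups that did not overlap, which 0.296% of all tested genes had. Values are log2 intensities after quantile normalization, on which fold changes are differences, and with 6 arrays per genotype the array number sets their precision. Liver tissue was measured whole, so fewer cells of a type and less RNA per cell cannot be told apart.

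**Figure D1:**
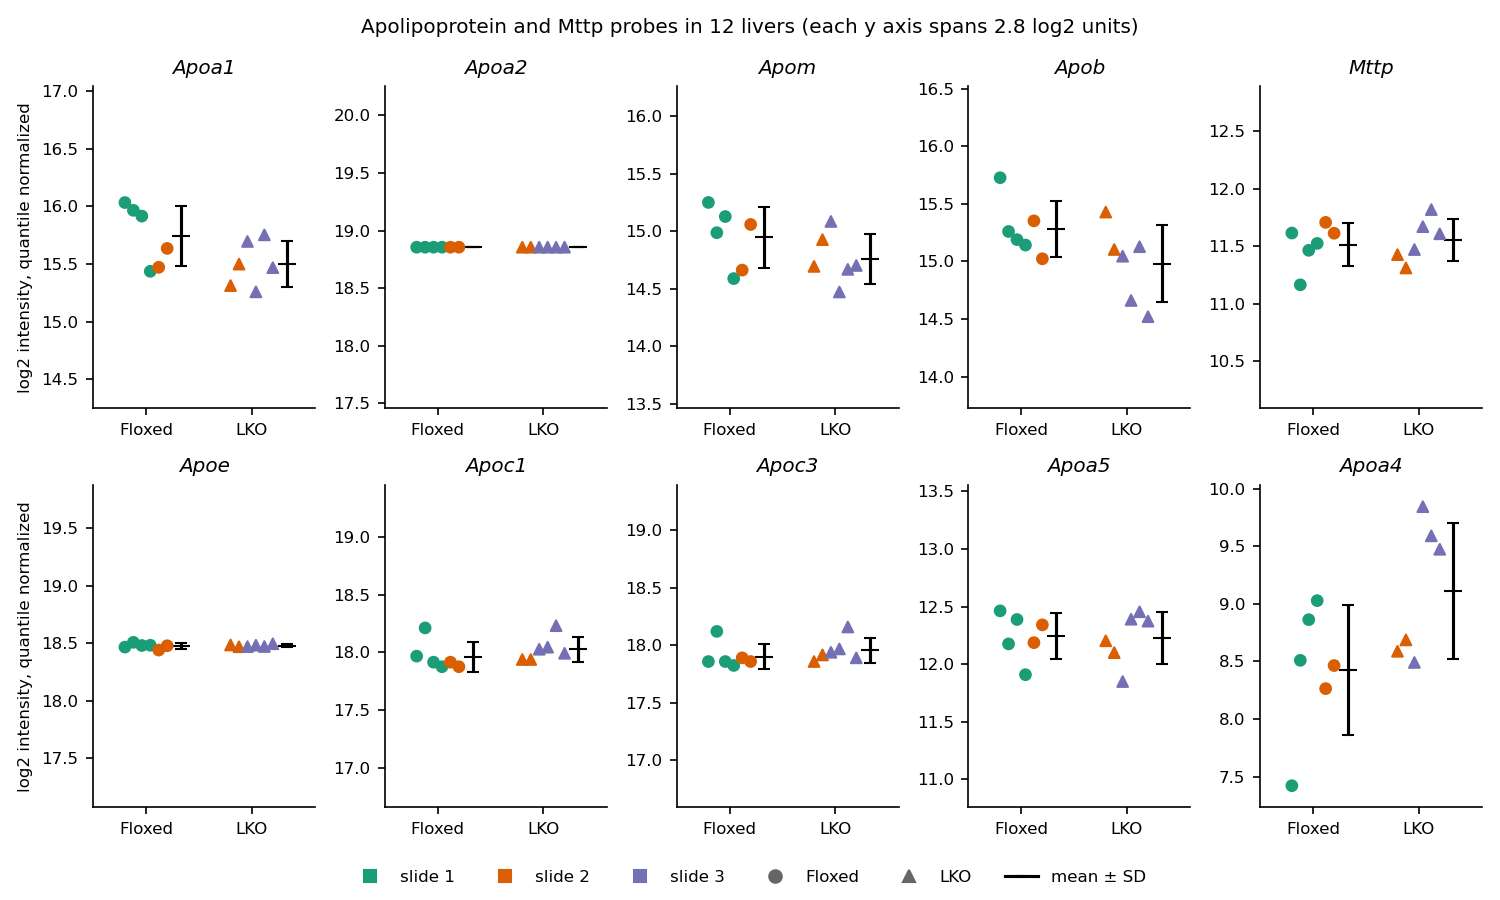
Log2 intensity (quantile normalized) of each of the 10 genes in 6 Floxed mice (circles) and 6 LKO mice (triangles), colored by slide, with the mean ± SD of each genotype to the right of its points. Every y axis spans the same width. Apoa4 varied most between mice, with 3 LKO mice above the highest Floxed mouse, and Apoa2 had the same value on all 12 arrays.

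The proteins of HDL come first. Apoa1 encodes apolipoprotein A-I, the main protein of HDL and the activator of cholesterol esterification in plasma. Its log2 intensity lay between 15.44 and 16.03 in the Floxed group (median 15.78), against 15.26 to 15.75 in the LKO group (median 15.48). Floxed mice 1 to 3, all on slide 1, gave the 3 highest values of the 12, and the remaining Floxed mice lay within the LKO range. The log2 fold change was -0.25 (standard error 0.13, 95% interval -0.53 to 0.03), with limma p = 0.0805, adjusted p = 0.690 and exact permutation p = 0.0996. On slide 2 alone it was -0.15. Among Floxed mice alone, those on slide 2 lay 0.28 below those on slide 1, a gap as large as that between genotypes.

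The precision of the Apoa1 reading was known better than for most genes, because its probe was printed on 10 spots of every array. The SD among the 10 spots was 0.025 to 0.039 log2 units per array, while the SD between mice of a genotype was 0.23. The spread of Apoa1 was thus mostly one between arrays and hardly one between spots, and whether it came from the mice or from the arrays was not tested.

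Apom encodes apolipoprotein M, which rides on HDL and carries sphingosine 1-phosphate. Its values were between 14.59 and 15.25 in the Floxed group (median 15.02), against 14.47 to 15.08 in the LKO group (median 14.70), and the groups overlapped over most of their range. The difference of -0.19 (95% interval -0.48 to 0.10) had limma p = 0.183, adjusted p = 0.838 and exact permutation p = 0.201. It was -0.050 within slide 2.

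For Apoa2, which encodes apolipoprotein A-II, the second protein of HDL, the arrays gave no reading of the genotype. Its main probe was the brightest of all probes on each of the 12 arrays, and quantile normalization sets the brightest spot of every array to the same value, here 18.86, so the difference was 0 by construction, within slide 2 too. As scanned, before any normalization between arrays, the probe differed by -0.046 between LKO and Floxed mice, and after scaling each array to its 75th percentile by -0.027. A second Apoa2 probe ranked 13 to 19 among the probes and lay between 18.12 and 18.28 in the Floxed group, against 18.12 to 18.30 in the LKO group. It differed by 0.038 (standard error 0.062, adjusted p = 0.962 from limma over probes), and by -0.0046 within slide 2.

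Apob encodes the structural protein of VLDL and of the low density lipoprotein made from it. Its main probe lay between 15.02 and 15.73 in the Floxed group (median 15.23), against 14.52 to 15.43 in the LKO group (median 15.07). LKO 4 at 14.66 and LKO 6 at 14.52 lay below every Floxed mouse, and Floxed 1 and LKO 1 were the highest of their groups. The log2 fold change was -0.30 (standard error 0.16, 95% interval -0.64 to 0.04), with limma p = 0.0783, adjusted p = 0.685 and exact permutation p = 0.119. Within slide 2 it turned to 0.078, and between slides 1 and 3 it was -0.49. A second probe, 12.98 to 13.92 over the 12 mice, differed by -0.13 (adjusted p = 0.940 from limma over probes), and by 0.024 within slide 2. Neither second probe was called, where 8.54% of the 20403 tested probes were. LKO 5 was lowest on that probe and LKO 6 on the main one. With LKO 1 and LKO 2, the LKO arrays of slide 2, left out, Apob passed the threshold at -0.44, when 2173 of all 16915 genes did.

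Mttp, the lipid-loading partner of apolipoprotein B, lay between 11.16 and 11.71 in the Floxed group (median 11.57), against 11.31 to 11.82 in the LKO group (median 11.54). The medians were closer to each other than any genotype's own spread. LKO mice were 0.036 higher (95% interval -0.20 to 0.27, exact permutation p = 0.742, adjusted p = 0.977), an interval that leaves room for changes of either sign. Within slide 2 it was -0.29, and LKO mice on slide 3 lay 0.27 above those on slide 2.

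Apoe encodes the ligand by which remnant particles are taken up through the low density lipoprotein receptor and its relatives. It lay between 18.44 and 18.51 in the Floxed group, against 18.47 to 18.50 in the LKO group. The difference was 0.0032 (95% interval -0.11 to 0.12, exact permutation p = 0.788, adjusted p = 0.997), and -0.016 after scaling to the 75th percentile. It was 0.018 within slide 2. This narrow range is not to be read as a steady level. The 10 spots of the Apoe probe differed within an array with an SD of 0.090 to 0.17, far more than the SD of 0.017 between mice, and the probe ranked 5 to 7 on every array, where quantile normalization leaves little freedom.

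Apoc1 and Apoc3 encode small exchangeable apolipoproteins, and that of Apoc3 slows lipolysis of triglyceride-rich particles and their clearance. Apoc1 lay between 17.88 and 18.21 in the Floxed group (median 17.91), against 17.94 to 18.23 in the LKO group (median 18.01), with a log2 fold change of 0.069 (95% interval -0.11 to 0.24, exact permutation p = 0.357, adjusted p = 0.948). Apoc3 lay between 17.82 and 18.12 in the Floxed group (median 17.86), against 17.86 to 18.16 in the LKO group (median 17.93), with a log2 fold change of 0.053 (95% interval -0.11 to 0.22, exact permutation p = 0.437, adjusted p = 0.958). In both genes Floxed 2 and LKO 5 stood above the rest of their groups. Within slide 2 the differences were 0.043 and 0.013.

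**Figure D2:**
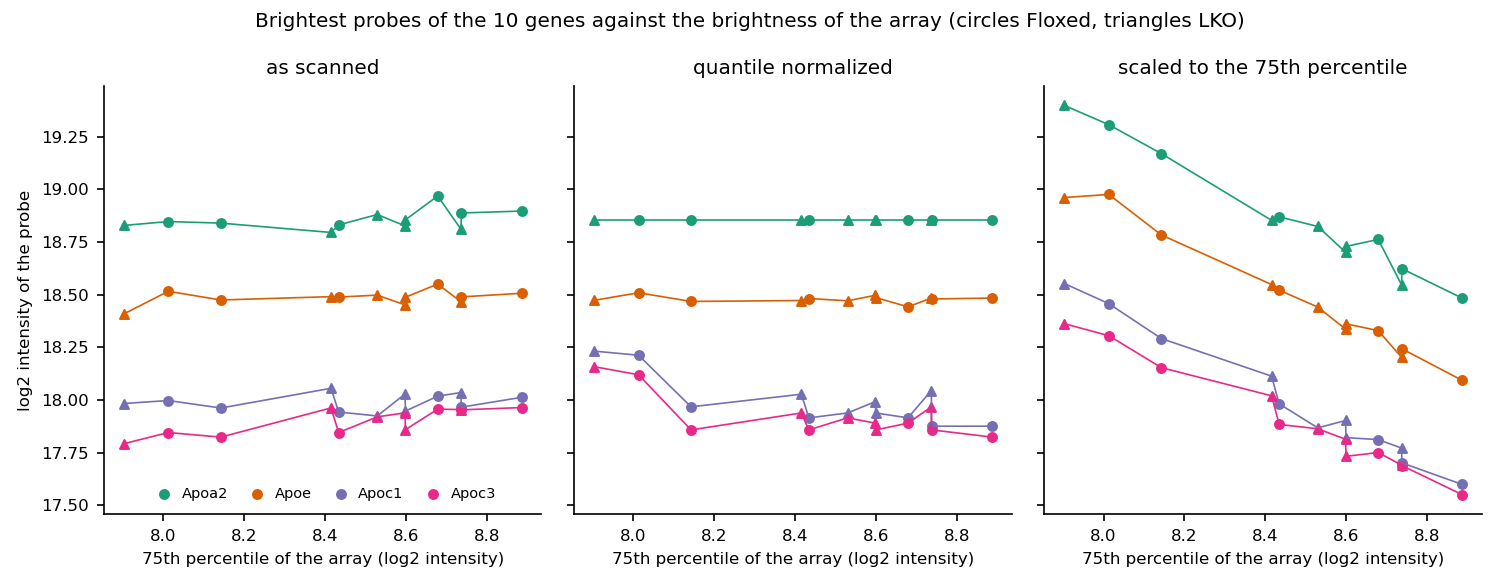
Log2 intensity of the probes of Apoa2, Apoe, Apoc1 and Apoc3 on each array (circles Floxed, triangles LKO) against the log2 75th percentile of that array, as scanned, after quantile normalization and after scaling to the 75th percentile. As scanned the probes hardly followed the brightness of the array, whereas after scaling they fell with it, and after quantile normalization Apoc1 and Apoc3 were highest on the dimmest arrays, LKO 5 and Floxed 2.

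These 4 genes share a limit. As scanned, their probes had SDs over the 12 arrays of only 0.047 (Apoa2), 0.035 (Apoe), 0.041 (Apoc1) and 0.063 (Apoc3), although the 75th percentile of the arrays ran from 7.90 to 8.89 on the log2 scale. Scaling to that percentile gave them SDs of 0.29, 0.29, 0.30 and 0.26, close to the SD of the percentile itself, 0.31. The probes thus stayed put while the rest of the array became brighter or dimmer, although none of their spots was marked as saturated. Whether probes of this brightness still follow the amount of RNA was not tested. The differences between genotypes were within 0.07 under all 3 scales.

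Apoa5 encodes an activator of lipolysis by lipoprotein lipase. It lay between 11.91 and 12.46 in the Floxed group (median 12.26), against 11.85 to 12.45 in the LKO group (median 12.29), almost the same range. The groups differed by -0.015 (95% interval -0.28 to 0.25, exact permutation p = 0.872, adjusted p = 0.992), and -0.11 within slide 2. It turned to 0.023 with LKO 1 and LKO 2 left out.

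Apoa4 encodes apolipoprotein A-IV, made mostly by the small intestine and in rodents also by the liver, where its mRNA is known to vary with feeding and fasting. Its log2 intensity lay between 7.42 and 9.03 in the Floxed group (median 8.49), against 8.49 to 9.84 in the LKO group (median 9.08). The means were 8.42 ± 0.57 (SD, n = 6) in Floxed and 9.11 ± 0.59 (SD, n = 6) in LKO mice. LKO 4, 5 and 6, at 9.84, 9.59 and 9.47, lay above every Floxed mouse, LKO 1, 2 and 3, from 8.49 to 8.69, lay in the upper part of the Floxed range, and Floxed 1 at 7.42 lay far below the others. All 6 LKO mice were above the Floxed mean.

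The log2 fold change of Apoa4 was 0.69 (standard error 0.30, 95% interval 0.04 to 1.33), with limma p = 0.0381, adjusted p = 0.564 and exact permutation p = 0.0714. The methods' t-test did not call it. Within slide 2 the difference was 0.27, while LKO mice on slide 3 lay 0.71 above LKO mice on slide 2, so a gap of the size of the genotype difference also stood between slides within LKO mice. With LKO 1 and LKO 2, the LKO arrays of slide 2, left out, the difference was 0.92. The call was lost when any 1 of 7 arrays was left out, namely Floxed 1, 2, 5 or 6 or LKO 4, 5 or 6, with log2 fold changes from 0.49 to 0.70.

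Apoa4 was also the gene with the widest spread. Its SD within genotypes was 0.58, at percentile 96.0 of the tested genes, whose median was 0.22. Apob followed with 0.29, and Apoa1 and Apom, at 0.23 and 0.24, were close to the median gene. After the genotype means were removed, the tested genes most like Apoa4 over the 12 arrays were the array's transcript NAP058829-1 (Pearson r = 0.911), Tefm (0.900), Ccdc115 (0.895), Pnpla7 (0.875) and ENSMUST00000073088 (0.875), taken as the 5 highest of 16893 genes compared. Values picked as the highest of so many are high by that choice, and they were not tested. Without the 2 arrays farthest from the Apoa4 median they ran from 0.903 (NAP058829-1) to 0.776 (ENSMUST00000073088). None of the 5 was called between genotypes, where 8.35% of all genes were.

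**Figure D3:**
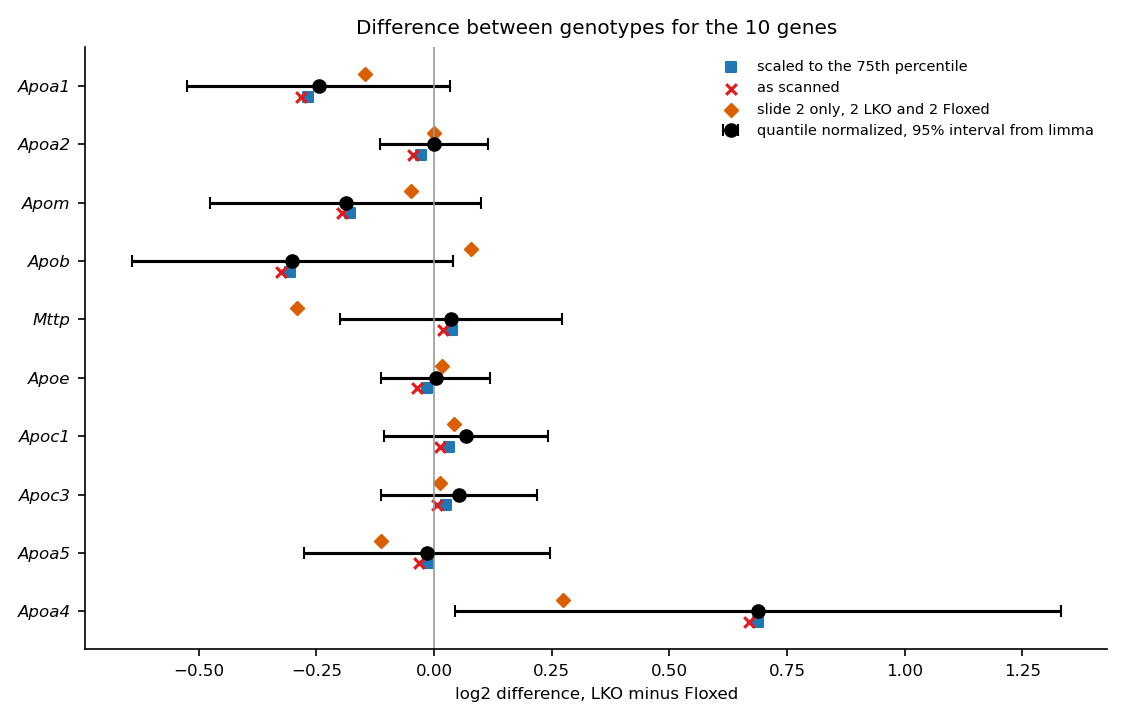
Log2 difference between LKO and Floxed mice for the 10 genes, as the limma estimate with its 95% interval on quantile-normalized values (black), after scaling to the 75th percentile (blue), as scanned (red) and within slide 2 (orange). Only the interval of Apoa4 left out 0, and the slide 2 difference of Apob and of Mttp had the opposite sign to that over all mice.

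The genes were next compared with each other between mice, after the genotype means were removed, over the 36 pairs of the 9 genes that varied. Of these, 5 had a permutation p below 0.05 for Pearson's r, and only Apoc1 with Apoc3 kept it after adjustment over the 36 pairs, so the other relations did not pass the correction. Apoa1 and Apom had a positive correlation (r = 0.763, permutation p = 0.00581, adjusted p = 0.0697; Spearman's rho = 0.692, p = 0.0158, adjusted p = 0.205). It was also positive with slide removed (r = 0.831), as scanned (0.784), after scaling to the 75th percentile (0.898) and without the 2 mice farthest from the Apoa1 median (0.636). After scaling to the 75th percentile Apoa1 also ran with Apoe at 0.924, where quantile normalization gave 0.162. The 0.898 was thus not particular to Apoa1 and Apom. Apoa1 and Apom both encode HDL proteins, on different chromosomes.

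Apob and Apoa4 had a negative one (r = -0.742, permutation p = 0.0056, adjusted p = 0.0697; rho = -0.622, p = 0.0346, adjusted p = 0.249). Floxed 1 was highest in Apob and lowest in Apoa4, and LKO 4 was among the lowest in Apob and highest in Apoa4. With slide removed r was -0.695, as scanned -0.449, after scaling to the 75th percentile -0.700 and without the 2 mice farthest from the Apob median -0.749. Apom also ran against Apoa4 (r = -0.648, permutation p = 0.024, adjusted p = 0.216). For that pair r was -0.251 as scanned, -0.590 after scaling to the 75th percentile and -0.698 with slide removed.

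Apoc1 and Apoc3 gave the highest value, r = 0.965 (permutation p = 0.00027, adjusted p = 0.00972), but it leaned on Floxed 2 and LKO 5. Without the 2 mice farthest from the Apoc1 median r was 0.663, and as scanned it was 0.529, beside rho = 0.719 (permutation p = 0.0111, adjusted p = 0.205). Floxed 2 and LKO 5 were the arrays with the lowest 75th percentiles of intensity, 258 and 239 where the others had 283 to 473. Apoa1 and Apoc1 were the last of the pairs (r = 0.591, permutation p = 0.0345, adjusted p = 0.248). Their r depended on the scale, at 0.041 as scanned and 0.919 after scaling to the 75th percentile.

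**Figure D4:**
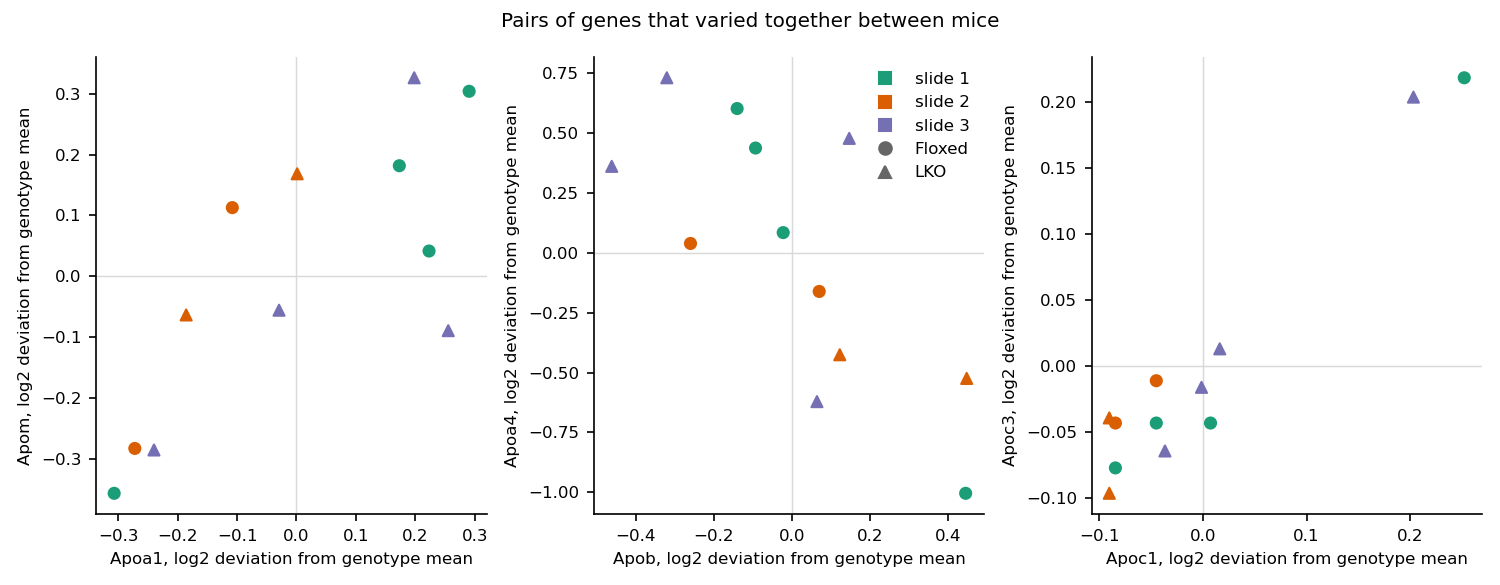
Deviation of each mouse from its genotype mean (log2 units) for Apoa1 against Apom, Apob against Apoa4, and Apoc1 against Apoc3, with circles for Floxed and triangles for LKO mice and colors for slides. The first pair had a positive correlation (r = 0.763) and the second a negative one (r = -0.742), each with an adjusted permutation p of 0.0697. In the third pair 2 arrays stood apart from the other 10.

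The other genes of the pathway were read from 5 lists by role. Of 22 other apolipoprotein genes 17 were tested, 1 was higher and none was lower (median log2 fold change 0.040, beside -0.0035 over all genes), a share of 5.88% where 8.35% of all genes were called. This was Apod, which encodes a lipocalin made in many tissues. It rose in LKO liver from a range of 4.17 to 4.78 (median 4.60) to one of 4.89 to 5.31 (median 5.02), and the groups did not overlap. Its log2 fold change was 0.50 (standard error 0.11, limma p = 0.000702, adjusted p = 0.257), the exact permutation p was 0.00216, the smallest that 6 against 6 mice can give, and within slide 2 it was 0.32. The probe was dim, at percentile 6.82 of the tested genes.

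Genes that supply lipid to VLDL, fold its protein and carry it out of the cell gave no call. Of 25 tested of 26 listed none was called in either direction, and the median was -0.020. Plasma lipases and remodelling factors, 16 of 16 tested, also had none called (median -0.075), with 12 below 0 and 4 above. Receptors and uptake proteins, 13 of 14 tested, had none called and a median of 0.045.

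Of 24 transcription factors that act on apolipoprotein genes, all tested, 2 were lower and none was higher in LKO liver (median -0.062), a share of 8.33%, close to the 8.35% over all genes. Both belong to the forkhead FOXA family, which opens chromatin at liver genes. Foxa3 lay between 9.74 and 10.33 in the Floxed group (median 9.96), against 8.93 to 9.73 in the LKO group (median 9.43), with no overlap. It fell by 0.65 on the log2 scale (standard error 0.16, limma p = 0.00136, adjusted p = 0.273, exact permutation p = 0.00216), and the difference within slide 2 was -0.57.

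Foxa1 lay between 8.52 and 9.83 in the Floxed group (median 9.28), against 8.16 to 8.88 in the LKO group (median 8.50), with overlap. It fell by 0.66 (standard error 0.22, limma p = 0.0101, adjusted p = 0.391, exact permutation p = 0.0303), with -0.60 within slide 2. With LKO 1 and LKO 2 left out, Foxa3 was called and Foxa1 was not. The third member of the family, Foxa2, and the nuclear receptor Hnf4a, both named after their values were seen, had log2 fold changes of -0.30 and -0.13 and were not called. Of the 6 genes with a forkhead match in a start region, Apoa1 (log2 fold change -0.25), Apom (-0.19), Apob (-0.30) and Apoa5 (-0.015) were not called. Apoa2, set to 0 by the normalization, and Apoe (0.0032), which the normalization left little freedom, cannot be read as unchanged. The motif was chosen with the sequences in view, and a link between the FOXA genes and these 6 genes was not tested.

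**Figure D5:**
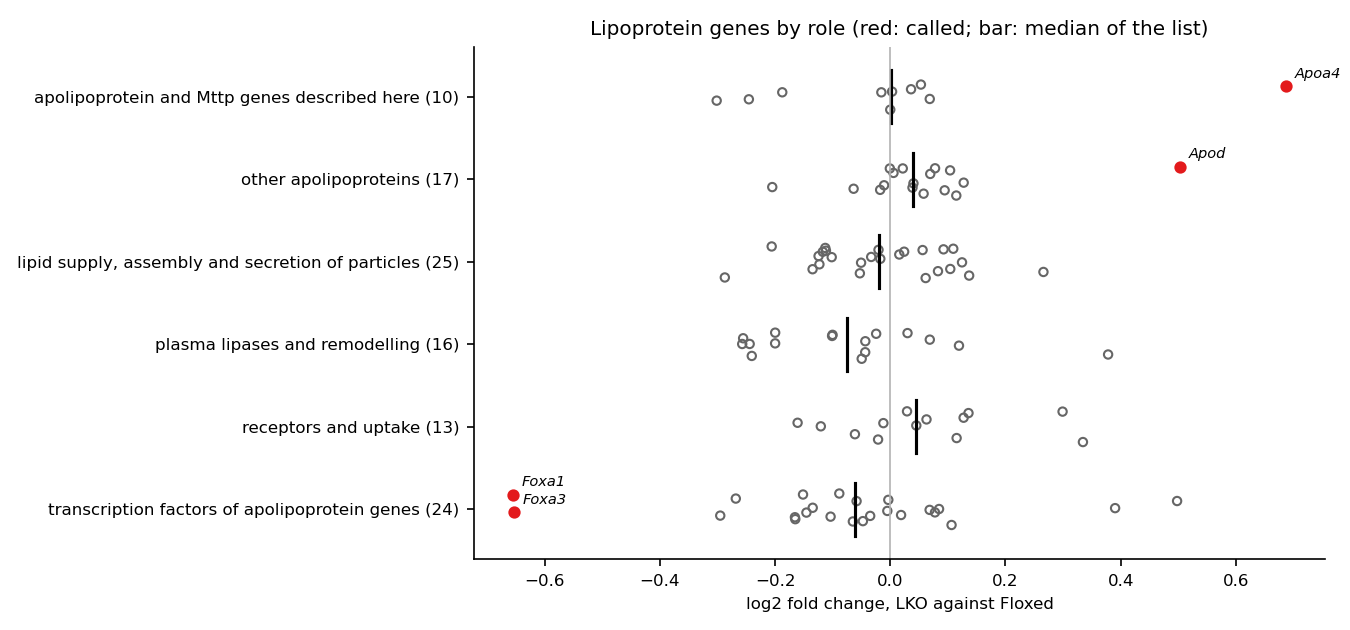
Log2 fold change of LKO against Floxed mice for the 10 genes and for the tested genes of the 5 lists by role, 1 point per gene, with called genes in red and the median of each list as a bar. The called genes were Apoa4 and Apod, higher in LKO liver, and Foxa1 and Foxa3, lower.

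Markers of other cells were read beside the Apoa4 result, since the intestine is its main source. Of 8 enterocyte markers only Fabp2, the intestinal fatty acid binding protein, could be tested, and it was higher in LKO mice, from a range of 13.46 to 14.18 to one of 13.66 to 14.78 (log2 fold change 0.47, limma p = 0.0253, adjusted p = 0.501, exact permutation p = 0.0498, slide 2 difference 0.29). The other 7, with Vil1, Cdx1, Cdx2, Alpi, Sis, Lct and Slc5a1, were not well above background on all arrays, so the summed linear intensity of the tested list, 11239 to 18579 in Floxed and 12936 to 28107 in LKO mice, is that of Fabp2. The Fabp2 probe was bright, at percentile 92.8 of the tested genes, and which cells gave its signal was not tested. None of 11 tested macrophage and Kupffer cell markers was called (10 below 0, median -0.093), nor any of 10 hepatocyte markers (median -0.048), 3 adipocyte markers (median -0.095) or 6 blood cell markers (median -0.24). Of 5 tested pancreas acinar markers 1 was higher, Cel with 0.54, or 0.27 within slide 2, and so was 1 of 8 stellate and endothelial markers, Pecam1 with 0.70, or 0.042 within slide 2 (summed list 13834 to 15922 in Floxed and 13559 to 17492 in LKO mice). The probes of Cel (5.01 to 6.24 over the mice) and Pecam1 (5.36 to 6.78) were dim. A call in 1 of 5 or 1 of 8 genes is read beside the 8.35% over all genes, and the part of these markers in the results above was not tested.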

How the data were processed

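Liver RNA of 12 mice was hybridized to single-color Agilent arrays. The authors deposited scanner output from Agilent Feature Extraction (version 9.5.1.1 in the submitters' processing notes, 10.7.1.1 in the file headers) with a processed intensity per spot, corrected for background but not between arrays, and a table of intensities per probe, already normalized between arrays. The probe sequences and the genome position of the probes were not used here.

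Genotypes came from the sample labels. Without the 1377 control spots an array had 43020 spots of 39429 probes. The log2 of the processed intensity was quantile normalized, outlier spots (0.298%) were set missing and the spots of a probe averaged. A probe was kept where it was marked well above background on each array (20404 probes; a probe on several spots counted where at least 0.5 of them were), a mark that stood in for the detection p-value of the study's methods. Accessions were matched to RefSeq symbols (94.3% of 28389), and the brightest probe stood for a gene. Genotypes were compared with limma 3.58.1 in R 4.3.3 (lmFit and eBayes, no covariate), with calls at an unadjusted p below 0.05 and Benjamini-Hochberg adjustment over all tested genes. Exact permutation tests were two-sided over all 924 arrangements, and permutation p-values of correlations used 100000 resamples. The code was tested on simulated data.

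The genes named are the 10 genes, Phgdh, every called gene of the 5 lists by role and the 5 genes most like the one with the widest spread, and Foxa2, Hnf4a, markers of other cells and genes called only under an alternative were named after their values were seen. The 10 genes, the lists and the tests were chosen with earlier results of these data known. Alternatives covered normalization, background correction, the authors' table, the dim-probe filter, outlier spots, several probes of a gene, the variance model, the slide, the replicate number, the threshold, the methods' t-test and each array left out. Intensities without normalization between arrays, and the omission of LKO 1 and LKO 2, were added after seeing the data.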

Additional observations from a re-analysis of the deposited data

Results flagged for a closer look

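Within a genotype, 4 of 32 groups of 6 arrays had a highest value set apart from the rest by more than Dixon's 95% critical value, where chance gives about 1.6. All were on 2 arrays. The groups were those of the 9 genes that varied, of Phgdh and of the called list and marker genes, the last chosen by these same values. The figure of 1.6 takes the groups as independent and unselected, which they were not. Apoc1 and Apoc3 varied together (r = 0.965), so their flags on an array are not separate events. On Floxed 2, Apoc1 was 18.21 and Apoc3 was 18.12, each the highest of the Floxed mice by far. On LKO 5, Apoc1 was 18.23 and Apoc3 was 18.16, likewise the highest of the LKO mice. These arrays had the lowest 75th percentiles of intensity. As scanned, Apoc1 ran from 17.92 to 18.06 and Apoc3 from 17.79 to 17.96 over the 12 arrays, and neither array was the highest there, with Apoc3 at 17.85 on Floxed 2 and at 17.79, the lowest value, on LKO 5.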

How the results depend on the processing

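Of 260 combinations of a gene among the 10 and an alternative, 225 kept direction and side of the threshold, 17 reversed, 10 lost a call and 8 gained one. Apoa2, at 0 in the main fit, had no direction to reverse, and all its combinations were counted as kept. These were 12 of 12 with an array left out and 14 of 14 otherwise, where it ran from -0.046 to 0.019. The 225 therefore overstates how many directions held. Apoa4 was higher in LKO mice under every alternative run, from 0.27 to 0.92. Its call was lost with no filter on dim probes (0.69), with slide as a fixed block (0.27) and without normalization between arrays (0.67), so the count of called genes among the 10 was 0 there, and also 0 at an adjusted p, at an absolute log2 fold change of 1 and by the methods' t-test, unadjusted or adjusted. The count was 2, with Apob beside Apoa4, with slide as a random block (Apob -0.34), on slides 1 and 3 only (-0.49), under the replicate block (-0.30, standard error 0.082 against 0.16 without it) and with LKO 1 and LKO 2 left out (-0.44). With each array left out in turn it ranged from 0 to 2. Without Floxed 4, Floxed 5 or LKO 5, Apoa1 passed the threshold, from -0.31 to -0.30, and without LKO 1 Apob did, at -0.39.

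Reversals were small except with slide as a fixed block, where Apob was 0.078 and Mttp -0.29. Apoe was -0.016 after scaling to the 75th percentile, -0.0041 on slides 1 and 3 and -0.034 without normalization between arrays, Apoc3 -0.027 after normexp correction, and Apoa5 0.033 on slides 1 and 3 and 0.023 with LKO 1 and LKO 2 left out. With single arrays left out, Apoa5 ranged from -0.083 to 0.060, Mttp from -0.034 to 0.084 and Apoe from -0.0039 to 0.0095. Phgdh was not called after scaling (-0.34), with slide as a fixed block (-0.055) or without normalization between arrays (-0.36). Among the lists, lipid supply gained 1 call (Soat1) with no filter and with the filter on positive and significant signal, the other apolipoproteins had 0 with slide as a fixed block, transcription factors kept 1 (Foxa3) there and with LKO 1 and LKO 2 left out, and lipases had 1 with slide as a random block (Abca1), on slides 1 and 3 (Lpl) and under the replicate block (Lcat). The cause was not tested.

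Sample titles give same-numbered mice of the genotypes neighboring animal numbers, and controls were littermates, so shared litters are possible. No label says that a number marks a shared litter, and replicate numbers were therefore not taken as pairs. Same-numbered arrays correlated from -0.24 to 0.32 in their deviations, and 2 of 6 Floxed arrays matched their own number best. These values do not settle the pairing. The replicate block moved the count of called genes over the array from 1413 to 1428. It lowered the standard error of Apoa4 from 0.30 to 0.22 and that of Phgdh from 0.18 to 0.11. Those of Apoa1, Apom, Apob and Mttp also fell, while those of Apoa2, Apoe, Apoc1, Apoc3 and Apoa5 rose. Within-slide comparisons rest on the 4 arrays of slide 2.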
